A study of Mus musculus with 6 samples.

Results

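The whole pancreas of newborn mice that lack Spink3 was compared with that of mice that lack Spink3 but carry the XKI allele, under which the series' design describes part of the acinar cells as normal. The samples were chosen by their labels: the 2 arrays labelled Spink3-/- and the 2 labelled Spink3-/-XKI/+, of 6 in the series. The other 2 arrays are Spink3+/+ and are given beside the comparison as a reference. All mice were C57BL/6N at postnatal day 0.5, and total RNA of each sample was hybridised to its own single-colour Agilent mouse array. Both compared genotypes are Spink3-/-, so they share that loss and differ in the labels by XKI/+ alone. The labels do not say what the XKI allele carries or what drives it, nor whether both samples of a genotype are independent animals, 1 litter or pools. The p-values therefore measure how far these samples spread, and that spread may be technical.

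The product of Spink3 is a secreted trypsin inhibitor, packaged by acinar cells with their digestive enzymes, and it holds in check trypsin that becomes active too early inside the cell. In the design, all acinar cells of the Spink3-/- pancreas undergo a cell death that is not apoptosis and in which autophagy, the digestion of a cell's own contents in lysosomes, takes part. Acinar cells make up most of the organ, which also holds ducts, hormone-secreting islets, vessels, connective tissue and blood cells. The comparison asks which transcripts differ between a pancreas in which all acinar cells are affected and one in which some are not. In RNA of a whole organ, fewer cells of a type and less RNA per cell cannot be told apart.

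Each value below is a log2 level, the log2 of the processed spot signal minus that of the array's 75th percentile, so a level of 0 is that percentile, and a log2 difference is Spink3-/- minus Spink3-/-XKI/+. Of 55681 probes, 24519 passed background on both arrays of 1 or both genotypes, and they stood for 14029 named genes, against 14167 where any of the 3 genotypes could admit a gene. The percentile lay between 111 and 155 on the 6 arrays, and 42.4 to 50.8% of the spots were well above background, with the highest share on replicate 1 of Spink3-/-XKI/+. Across the tested probes the arrays correlated at 0.974 to 0.985, with 0.979 between the Spink3-/- arrays and 0.984 between the Spink3-/-XKI/+ arrays. The tissue label held on all 4 arrays: the enzyme transcript Cpa1 lay at log2 levels of 10.87 and 11.40 in Spink3-/- and 11.05 and 11.09 in Spink3-/-XKI/+. With 2 arrays a group, their number limits the precision of every value.

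Spink3 itself was low in both genotypes. Its log2 level was 3.25 and 2.95 in Spink3-/-, 2.64 and 2.34 in Spink3-/-XKI/+, and 9.84 and 10.26 in Spink3+/+. The XKI arrays thus had the lowest signal of this probe, below both Spink3-/- arrays, and neither came near the Spink3+/+ level. The log2 difference was 0.61 (SE 0.23, n = 2 per group) and did not pass (limma adjusted p = 0.626). Whether the probe lies in the deleted part of the gene, or could detect a transcript from the XKI allele, is not stated by the labels. The probe thus shows a lower Spink3 signal in both genotypes and does not check the rescue. The source of the remaining signal was not tested.

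Very few genes separated the genotypes beyond the spread between arrays. By limma with Benjamini-Hochberg adjustment over 14029 genes, 1 gene rose in Spink3-/- (0.00713% of the genes tested) and 0 fell (0%). At an unadjusted p under 0.05 there were 343 genes on the higher side (2.44%) and 689 on the lower side (4.91%), together 1032 where 701 would be reached by chance. With spike-in scaling this split was 296 to 290, together below the 701 reached by chance. With no filter on dim probes it was 619 to 590 over 24163 genes, where 5% would be reached by chance. No overlap between the arrays together with a log2 difference of at least 1 was met by 139 genes on the higher side (0.991%) and 183 on the lower side (1.30%). These counts also required the brighter genotype to be well above background on both arrays. Among the counted genes, 21 of the higher were below background on both Spink3-/-XKI/+ arrays, and 93 of the lower on both Spink3-/- arrays. The median log2 difference of all genes was -0.045, and 42.4% of them were higher in Spink3-/-.

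**Figure D1:**
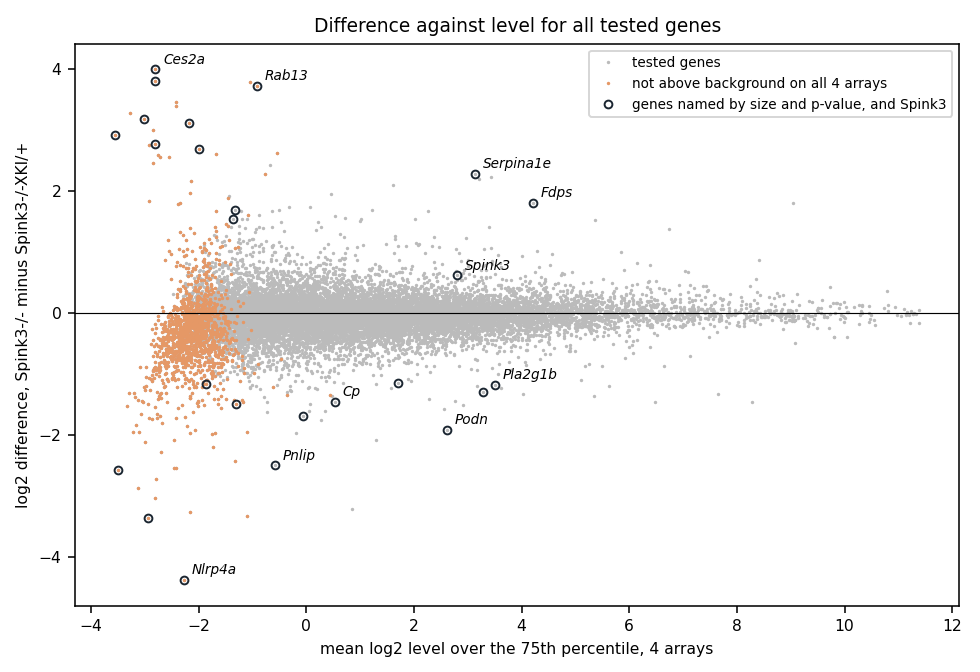
Log2 difference, Spink3-/- minus Spink3-/-XKI/+ (vertical axis), against the mean log2 level over the 75th percentile on the 4 arrays (horizontal axis), 1 point per tested gene. Genes not above background on all 4 arrays are orange, and circles mark the genes named by size and p-value and Spink3. The widest differences sit at low levels, with Ces2a at 3.99 and Nlrp4a at -4.38, while Fdps at 1.80 and Serpina1e at 2.27 stand out among brighter genes.

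Ces2a, a carboxylesterase that splits esters of lipids and drugs, was the gene that rose. Its log2 level was -0.81 on each of the Spink3-/- arrays and -5.01 and -4.59 in Spink3-/-XKI/+, where it was not well above background. The Spink3+/+ arrays, at -4.14 and -4.60, were as dim as the XKI arrays, so only the Spink3-/- arrays had a measured signal. The difference was at least 4.00-fold, a bound that sets the bright group against the lowest signal still well above background and holds for the processed signal alone. The fitted log2 difference was 3.99 (SE 0.24, n = 2 per group, limma adjusted p = 0.0283). The call was lost with normexp background correction (log2 difference 1.11, limma adjusted p = 0.0687) and without any 1 of the 6 arrays (limma adjusted p from 0.0583 to 0.111). It was also lost with no filter on dim probes, with 4 arrays in the fit, with the replicate block and with a trend and robust fit (limma adjusted p = 0.566, 0.0664, 0.283 and 0.0984). The array's Ces2a probe lies on chromosome 8 from 107265289 to 107265348 in the files' build, mm9. Of the other carboxylesterases tested, Ces1d, Ces1e, Ces2e and Ces5a had log2 differences of -0.10, 0.79, -0.58 and -1.95, and none passed. Ces5a was below background on both Spink3-/- arrays, which bounds its difference at 1.16-fold or more.

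Further genes with large differences on the higher side did not pass. Rab13, a RAB family GTPase that steers membrane traffic to cell junctions, lay at log2 levels of 1.28 and 0.60 in Spink3-/- and at -2.69 and -2.86 in Spink3-/-XKI/+, where 1 of 2 arrays measured it (log2 difference 3.71, SE 0.31, limma adjusted p = 0.0698). A second Rab13 probe gave a log2 difference of -0.34, opposite in sign, so the value holds for the first probe alone. Adgrf4, an adhesion G protein-coupled receptor, was at -0.27 and -1.54 in Spink3-/- and below background in Spink3-/-XKI/+ (at least 3.74-fold). Nrxn3, a neurexin of synapses, was at -0.29 and -1.01 and also dim on both XKI arrays (at least 4.46-fold). The odorant receptor Olfr974 (at least 4.53-fold), the secreted phospholipase Pla2g5 (at least 2.61-fold), the MAP kinase phosphatase Dusp5 (at least 2.61-fold) and the EF-hand protein Efcab9 (at least 1.65-fold) had the same pattern. In each of these the Spink3-/-XKI/+ and Spink3+/+ arrays were both dim.

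Other genes of this group were measured on all 4 arrays. Grhl1, a transcription factor of epithelial barriers, was at log2 levels of -0.70 and -0.25 in Spink3-/- and -2.18 and -2.14 in Spink3-/-XKI/+ (log2 difference 1.69, SE 0.23, limma adjusted p = 0.222). Bglap2, an osteocalcin gene, was at -0.72 and -0.49 against -1.95 and -2.33, with Spink3+/+ above both at 0.04 and -0.03. Igfbp1, a liver-made binding protein of insulin-like growth factors, was at 1.70 and 1.15 against -0.84 and -0.21. The groups do not overlap in any of the 3. The naming rule fixed this for Grhl1 and Bglap2, and Igfbp1 was named after its values were seen.

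The genes named on the lower side did not pass either. Pnlip, the pancreatic triglyceride lipase, lay at log2 levels of -1.95 and -1.73 in Spink3-/- and 0.96 and 0.36 in Spink3-/-XKI/+, with Spink3+/+ between them at -0.07 and -0.79. Its log2 difference was -2.50 (SE 0.31, n = 2 per group, limma adjusted p = 0.201). Pla2g1b, the pancreatic phospholipase A2, was at 2.90 and 2.91 against 3.95 and 4.23, with Spink3+/+ again between at 3.45 and 3.56. Its log2 difference of -1.18 (SE 0.18, limma adjusted p = 0.222) was -0.55 by a second, dimmer probe. For both lipid enzymes the arrays fell in the order Spink3-/-, Spink3+/+, Spink3-/-XKI/+ with no overlap. The choice of genes fixed the lack of overlap between Spink3-/- and Spink3-/-XKI/+, but not the place of Spink3+/+.

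Podn, a small leucine-rich proteoglycan of the matrix, was at log2 levels of 1.62 and 1.70 in Spink3-/- and 3.75 and 3.39 in Spink3-/-XKI/+ (log2 difference -1.91, SE 0.26, limma adjusted p = 0.222). Spon2, another matrix protein, was at 1.16 and 1.09 against 2.28 and 2.26, and here the Spink3+/+ arrays, at 1.14 and 1.27, lay with Spink3-/-. Fcgbp, a mucus protein (log2 difference -1.17), and the adaptor Sh2d4a (-1.50) were measured on 1 of 2 Spink3-/- arrays. Asb11, a substrate receptor of ubiquitin ligases, differed by -1.69 and by -1.31 on a second probe. Nlrp4a, of the NOD-like receptor family, was at -1.03 and 0.86 in Spink3-/-XKI/+ and below background elsewhere (at least 5.15-fold). The opposite-strand transcript Tmem51os1 (at least 2.27-fold), and Btbd35f7 (at least 1.19-fold) were also dim on both Spink3-/- arrays. Pglyrp1, a peptidoglycan-binding protein of neutrophil granules, was at 0.02 and 0.49 against 2.11 and 2.58. S100g, an intestinal calcium-binding protein, was at -0.22 and -1.29 against 2.37 and 2.55, with an SE of 1.04 and with Spink3+/+ arrays at -1.55 and 1.91. No gene on the lower side passed.

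**Figure D2:**
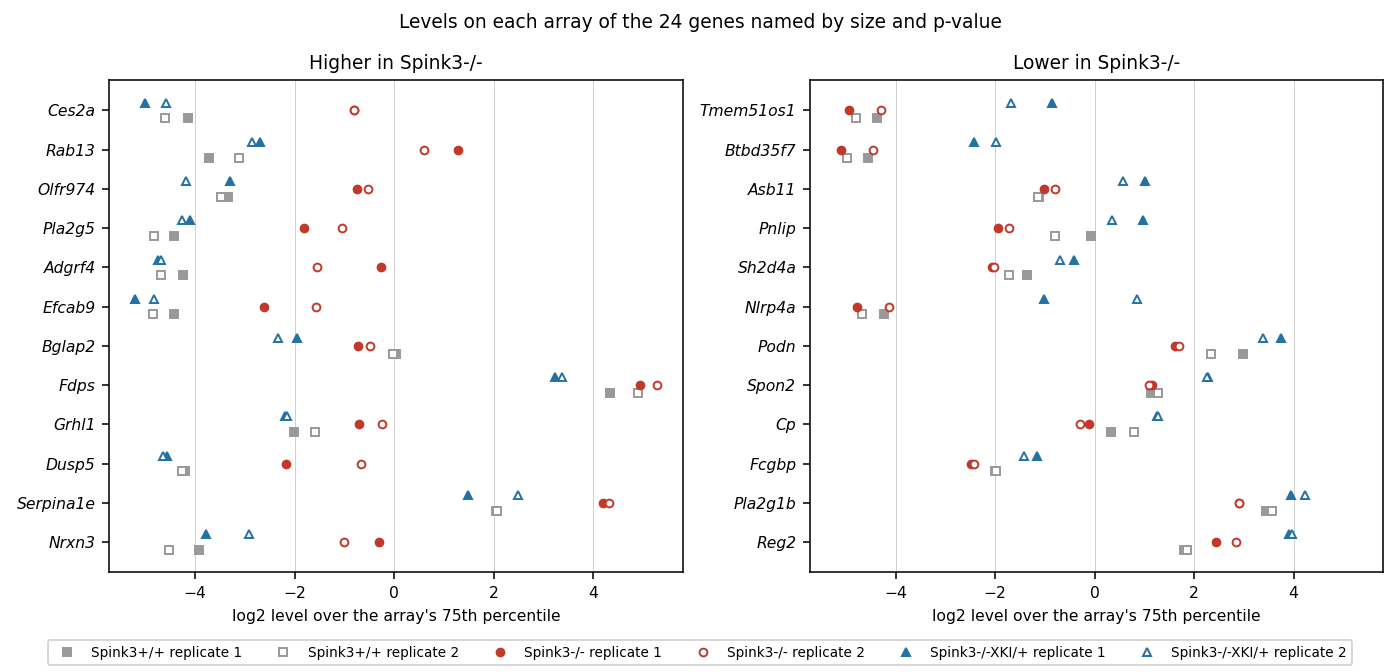
Log2 level relative to the 75th percentile of its array (horizontal axis) of the 12 genes named on the higher side and the 12 on the lower side, with Spink3-/- as red circles, Spink3-/-XKI/+ as blue triangles and Spink3+/+ as grey squares, filled for replicate 1 and open for replicate 2. In every gene the red and blue points do not overlap, which the choice of genes fixed, and for Ces2a the grey points lie with the blue ones near -4 to -5.

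Transcripts of liver plasma proteins had the highest median among the lists over all 4 arrays, though not without replicate 1 of Spink3-/-XKI/+ (interferon response 0.71) or over genes above background on all 4 arrays (cholesterol 0.65). These genes are typical of hepatocytes, which lie beside the pancreas in the newborn abdomen. Of 23 tested members 20 were higher and 3 lower in Spink3-/-, and the median log2 difference was 1.28. Unadjusted p was under 0.05 for 11 on the higher side and 0 on the lower, and the arrays did not overlap for 16 and 0. Over all genes the shares are 2.44 and 4.91% for p and 13.1 and 21.6% for overlap, which apply to every list below. None passed over all genes. Serpina1a, the main inhibitor of neutrophil elastase in plasma, was at log2 levels of 4.44 and 4.63 in Spink3-/- against 1.78 and 2.83 in Spink3-/-XKI/+ (log2 difference 2.22, SE 0.34, limma adjusted p = 0.222). Its paralogs Serpina1e and Serpina1c differed by 2.27 and 2.19, but these genes are near-identical and their probes may share signal. Second probes of Serpina1a and Serpina1e gave 0.61 and 0.89.

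Albumin (Alb), the main plasma protein, was at log2 levels of 2.13 and 1.44 in Spink3-/- and -0.55 and 1.06 in Spink3-/-XKI/+. The fetal protein Afp was at 3.33 and 2.24 against 0.32 and 2.18, so that its lower Spink3-/- array and its higher XKI array nearly met. Apoh, a phospholipid-binding plasma protein, was at 0.03 and -0.80 against -3.86 and -2.12, with 1 of 2 XKI arrays above background. The kinin precursor Kng1 was at 2.61 and 2.70 against -0.29 and 1.42, the lipoprotein protein Apoa1 at -0.41 and 0.26 against -2.49 and -0.85, and Apob at -1.26 and -0.71 against -3.17 and -1.62. The vitamin D-binding protein Gc and the fibrinogen chain Fga differed less, by 0.70 and 0.23 on the log2 scale. In 15 of the 23 members replicate 1 of Spink3-/-XKI/+ was the lowest of the 4 arrays. The list's mean log2 level was 2.01 and 1.96 in Spink3-/-, 0.53 and 1.35 in Spink3-/-XKI/+, and 0.74 and 1.00 in Spink3+/+. The median was 0.61 without replicate 1 of Spink3-/-XKI/+, 0.77 without replicate 2 of Spink3-/-, 0.58 over the 19 members above background on all 4 arrays, and 0.52 with normexp background correction. The part that adhering liver has in these values was not tested.

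Cholesterol synthesis genes were higher in Spink3-/- almost throughout. The pathway makes sterols from acetyl units, and its enzymes are switched on together by SREBP2 when a cell's sterols are low. Of 23 tested members 22 were higher and 1 lower, with a median log2 difference of 0.65. Unadjusted p was under 0.05 for 12 on the higher side and 0 on the lower, and 17 and 0 did not overlap. None passed over all genes. Fdps, which makes farnesyl diphosphate, was at log2 levels of 4.95 and 5.28 in Spink3-/-, 3.24 and 3.38 in Spink3-/-XKI/+ and 4.35 and 4.90 in Spink3+/+ (log2 difference 1.80, SE 0.24, limma adjusted p = 0.222). The XKI arrays were below all 4 others. Insig1, which holds the SREBP escort in the endoplasmic reticulum, was at 1.12 and 1.40 against 0.14 and -0.19, with Spink3+/+ at 1.30 and 1.17. The isomerase Idi1 was at 1.23 and 1.44 against -0.11 and -0.41, with Spink3+/+ at 0.26 and 1.37.

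Later steps of the same route differed in the same direction. Msmo1 and Dhcr7, which act on the sterol ring, differed by 1.24 and 1.01 on the log2 scale, and Sqle, the squalene epoxidase, by 0.86. The entry enzyme Hmgcs1 was at log2 levels of 3.46 and 3.74 against 2.76 and 3.03. The list's mean log2 level was 1.46 and 1.84 in Spink3-/-, 0.95 and 1.01 in Spink3-/-XKI/+, and 1.40 and 1.73 in Spink3+/+. In 21 of the 23 members the mean of Spink3-/-XKI/+ was below that of Spink3+/+. With normexp background correction the list's median log2 difference was 0.41, with 22 members higher and 1 lower. Replicate 2 of Spink3-/- was the higher of its pair in 21 members, and without it the median was 0.41 with 20 members higher and 4 under an unadjusted p of 0.05. Fatty acid synthesis genes, which answer to related factors, had a median of 0.06 over 15 members, 10 higher and 5 lower. Without replicate 1 of Spink3-/-XKI/+ it was -0.089. Among them the desaturases Scd2 and Fads1 differed by 1.12 and 0.47, Fasn by 0.54 and Srebf1 by 0.05.

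The sterol regulatory element TCACNCCAC was searched on both strands (GTGGNGTGA on the other) in the 250 bases before the start site, from RefSeq promoters of build GRCm38.p6. It was found before 1 of the 17 members with a promoter in the table, Hmgcs1, against 1.22% of the 27025 genes there. Its window (chr13:119690191-119690300, plus strand) is shown 5′ to 3′ on the strand of the gene with the match in capitals, beside the same stretch before Ces2a (chr8:104733843-104733952, plus strand), the gene that rose, which holds neither this motif nor the interferon motif given further on.
Hmgcs1: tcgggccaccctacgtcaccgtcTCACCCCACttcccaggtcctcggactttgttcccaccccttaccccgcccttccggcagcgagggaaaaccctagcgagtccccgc
Ces2a: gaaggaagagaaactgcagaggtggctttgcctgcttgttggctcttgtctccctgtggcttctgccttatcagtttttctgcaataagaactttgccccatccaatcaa
A match is a description of the letters and not a site that was measured, and no match says only that these letters are not in this window.

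Interferon response genes had a median log2 difference of 0.48 over 26 members, 22 higher and 4 lower. They are the antiviral genes that STAT and IRF factors switch on after interferon. Unadjusted p was under 0.05 for 8 on the higher side and 0 on the lower, 12 and 0 did not overlap, and none passed over all genes. Isg15, a ubiquitin-like modifier, was at log2 levels of 4.44 and 3.76 in Spink3-/-, 3.03 and 2.37 in Spink3-/-XKI/+ and 3.40 and 3.64 in Spink3+/+ (log2 difference 1.40, SE 0.32, limma adjusted p = 0.462). A second Isg15 probe gave 1.57. Ifit3, which binds foreign RNA caps, was at 1.30 and 0.62 against -0.40 and -0.65. The antiviral GTPase Mx1 was at -1.32 and -1.94 and below background on both XKI arrays (at least 2.27-fold), Ifi44 differed by 1.43 with 1 of 2 XKI arrays above background, and Usp18, which removes Isg15, differed by 1.07. The signal transducer Stat2 was at 2.09 and 2.04 against 1.52 and 1.46.

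The regulators Irf7 and Irf1 differed by 0.32 and -0.18. Within each of the compared genotypes, though not in Spink3+/+, replicate 1 was the higher array, in 23 of 26 members of Spink3-/- and in 25 of 26 of Spink3-/-XKI/+. The list's mean log2 level was 1.48 and 1.13 in Spink3-/- and 0.98 and 0.45 in Spink3-/-XKI/+, beside 0.86 and 1.17 in Spink3+/+. Without replicate 2 of Spink3-/-XKI/+ the median was 0.16 with 16 members higher. Without replicate 1 of that genotype it was 0.71 with all 26 higher.

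The core of the interferon-stimulated response element, GAAANNGAA (TTCNNTTTC on the other strand), was found before 10 of the 21 members with a promoter in the table (47.6%), against 8.18% of all genes. The windows of 4 of these members are shown to set repeated matches beside a single one: Isg15 (chr4:156200869-156200978, minus strand) and Ifit3 (chr19:34583369-34583478, plus strand) have 3 matches each, Bst2 (chr8:71537523-71537632, minus strand) has 2 and Rsad2 (chr12:26456503-26456612, minus strand) has 1, all in GRCm38.p6 with matches in capitals. Matches that touch or overlap run together.
Isg15: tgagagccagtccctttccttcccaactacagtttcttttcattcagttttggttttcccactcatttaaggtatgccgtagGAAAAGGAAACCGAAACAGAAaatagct
Ifit3: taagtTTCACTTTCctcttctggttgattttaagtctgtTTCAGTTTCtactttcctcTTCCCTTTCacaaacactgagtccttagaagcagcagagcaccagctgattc
Bst2: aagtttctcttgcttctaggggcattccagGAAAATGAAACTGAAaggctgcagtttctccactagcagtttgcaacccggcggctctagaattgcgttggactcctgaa
Rsad2: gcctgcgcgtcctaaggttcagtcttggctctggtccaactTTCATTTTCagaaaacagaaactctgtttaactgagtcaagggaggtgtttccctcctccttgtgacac
Bst2, which tethers budding virus, was at log2 levels of 3.82 and 3.62 against 3.16 and 2.71, and the antiviral enzyme Rsad2, at 0.60 and -0.50 against -0.38 and -1.31, overlapped. Members with a match had log2 differences from -0.06 (Gbp2) to 1.48 (Ifit3), and members without one from -0.18 (Irf1) to 1.43 (Ifi44).

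**Figure D3:**
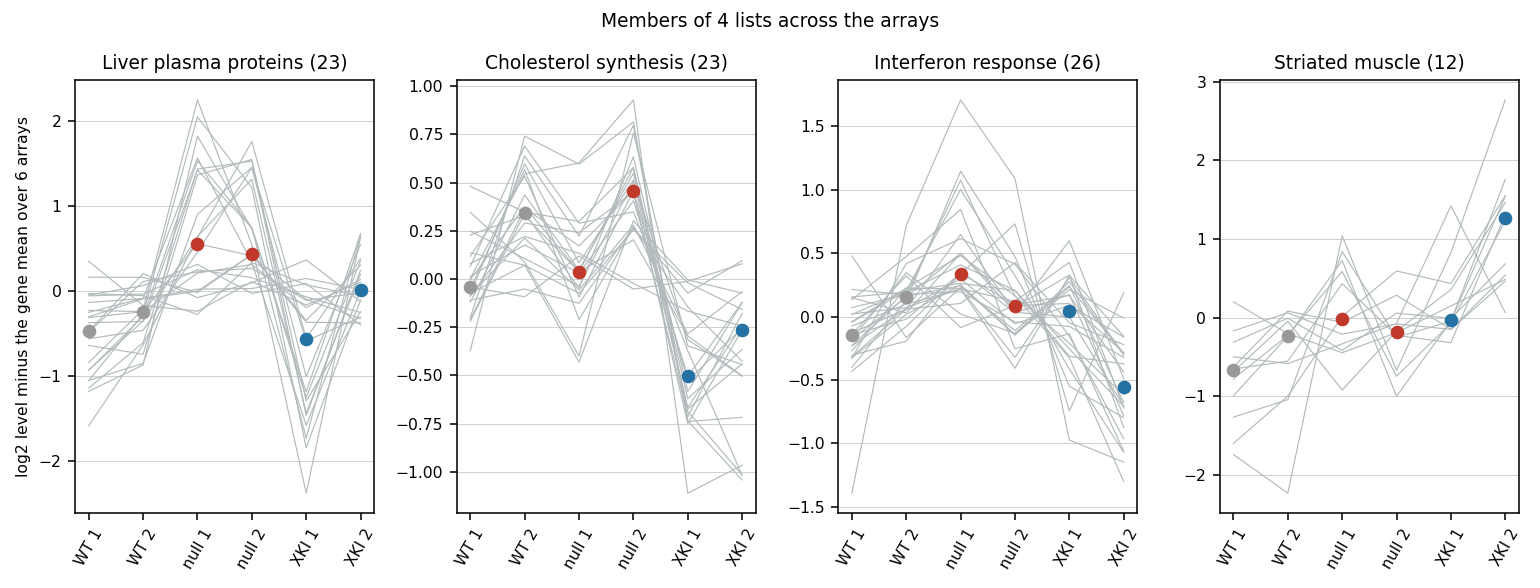
Log2 level minus the gene's mean over 6 arrays (vertical axis) for members of 4 lists on each array (horizontal axis; WT is Spink3+/+, null is Spink3-/-, XKI is Spink3-/-XKI/+). Grey lines are genes and coloured points the median of the list on that array. Liver transcripts are lowest on XKI replicate 1, cholesterol genes are low on both XKI arrays, interferon genes are lowest on XKI replicate 2, and muscle genes are highest on XKI replicate 2.

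Genes of cell division leaned the same way in part. The list of cell cycle genes had a median log2 difference of 0.38 over 26 members, 21 higher and 5 lower. Under an unadjusted p of 0.05 were 8 and 0 (all genes 2.44 and 4.91%), and 13 and 0 did not overlap (all genes 13.1 and 21.6%). Ccnb1, the cyclin that drives entry into mitosis, was at log2 levels of 1.68 and 1.28 in Spink3-/- and 0.36 and 0.43 in Spink3-/-XKI/+, with Spink3+/+ at 1.01 and 1.14 (log2 difference 1.08, SE 0.20, limma adjusted p = 0.305). The topoisomerase Top2a differed by 1.25 with 1 of 2 XKI arrays above background, the S-phase cyclin Ccna2 by 0.69, the mitotic activator Cdc20 by 0.66, the spindle protein Birc5 by 0.58 and the proliferation marker Mki67 by 0.52. Most of these act in mitosis, while the 6 subunits of the MCM helicase, which opens DNA for replication, lay between -0.08 and 0.12. Without replicate 1 of Spink3-/- the list's median was 0.12 with 16 members higher. With normexp background correction the median was 0.195, with 21 members higher and 5 lower.

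The hypoxia and glycolysis list had a median log2 difference of 0.34 across 23 members, 18 higher and 5 lower. Under an unadjusted p of 0.05 were 6 and 0 (all genes 2.44 and 4.91%), and 14 and 0 did not overlap (all genes 13.1 and 21.6%). Ldha, which makes lactate, was at log2 levels of 6.80 and 6.76 in Spink3-/- and 5.95 and 6.03 in Spink3-/-XKI/+, with Spink3+/+ at 6.01 and 6.70. Bnip3, a mitochondrial protein of hypoxic cells, was at 3.29 and 3.60 against 2.70 and 2.44, and the glucose transporter Slc2a1 at 1.17 and 0.85 against 0.23 and 0.37. Hexokinase Hk2 differed by 1.17, the carbonic anhydrase Car9 by 0.80 and the vessel growth factor Vegfa by 0.15. With any 1 of the 4 arrays left out the median was between 0.28 and 0.36, but 2 members on the higher side were under an unadjusted p of 0.05 without replicate 1 of Spink3-/-, without replicate 2 of Spink3-/- or without replicate 1 of Spink3-/-XKI/+.

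The unfolded protein response, which raises chaperones when proteins misfold in the endoplasmic reticulum, had a smaller median of 0.22 over 31 members. There 23 were higher and 8 lower, and 2 and 0 were under an unadjusted p of 0.05 (all genes 2.44 and 4.91%). No overlap was met by 15 and 2 (all genes 13.1 and 21.6%). The chaperone Hspa5 was at log2 levels of 7.17 and 7.34 against 6.90 and 6.92, Herpud1, of the degradation pathway, at 5.17 and 5.05 against 4.38 and 4.57, and the stress kinase Eif2ak3 at 3.16 and 2.87 against 2.63 and 2.38. The stress-induced factor Ddit3 was at 0.03 and -0.18 against 0.62 and 0.36, Trib3 differed by -0.40 and Atf4 by 0.40. The acinar secretory pathway had a median of 0.13 over 29 members, 20 higher and 9 lower, which was 0.029 without replicate 2 of Spink3-/-XKI/+. In it the muscarinic receptor Chrm3 differed by 0.82, the retrieval receptor Kdelr3 by 0.57, and the translocon subunits Sec61b and Sec61a1 by 0.17 and -0.11.

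Immediate early genes, which respond to growth factors and stress within minutes, had a median of 0.25 over 21 members, 18 higher and 3 lower, with 2 and 0 under an unadjusted p of 0.05. Egr2 was at log2 levels of -0.52 and -1.44 against -2.40 and -1.89 and Maff at 0.40 and 0.01 against -0.51 and -0.24, while Egr1 and Fosb differed by 0.20 and 0.04. Replicate 1 of Spink3-/- was the higher of its pair in 18 members, and without it the median was 0.05. Targets of p53 had a median of 0.20 over 17 members, 11 higher and 6 lower, which was 0.12 without replicate 1 of Spink3-/- and 0.049 without replicate 1 of Spink3-/-XKI/+. The stress proteins Sesn1 and Trp53inp1 differed by 1.06 and 0.96, the cell cycle inhibitor Cdkn1a by 0.20, Mdm2 by 0.09 and the death receptor Tnfrsf10b by -0.74. The list of oxidative stress genes and metallothioneins had a median of 0.00 over 26 members, 13 on each side. Its metal-binding Mt1 was at 10.01 and 9.88 in Spink3-/- against 7.34 and 8.95 in Spink3-/-XKI/+, Gclc differed by 0.98, Gclm by -0.64 and Hmox1 by 0.66, with -0.09 on a second Hmox1 probe.

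Digestive enzymes, the main product of acinar cells, had a median log2 difference of -0.12 over 27 members, 5 higher and 22 lower. Unadjusted p was under 0.05 for 0 on the higher side and 3 on the lower (Pnlip, Pla2g1b and the zymogen granule protein Gp2), and 1 and 9 did not overlap. The shares over all genes are 2.44 and 4.91% for p and 13.1 and 21.6% for overlap. Gp2 was at log2 levels of 6.50 and 7.46 in Spink3-/- and 8.12 and 8.50 in Spink3-/-XKI/+, with Spink3+/+ at 7.27 and 7.52, and a second probe gave a log2 difference of -1.30 beside -1.33. The trypsinogen Prss1 was at 9.74 and 9.97 against 10.33 and 10.17, and the carboxypeptidase Cpa1 differed by 0.07. Replicate 1 of Spink3-/- was the lower of its pair in 23 members, and without it 16 members were higher and 11 lower with a median of 0.04. In Pnlip, Pla2g1b and Gp2 both Spink3-/- arrays lay below both Spink3-/-XKI/+ arrays. The rule that named Pnlip and Pla2g1b required this, and Gp2 was named after its values were seen. The acinar transcription factors had a median of -0.19 over 13, 5 higher and 8 lower, with Ptf1a at -0.55, Rbpjl at -0.19 (0.16 on its second probe) and Foxa2 at -0.34. That median was -0.033 without replicate 1 of Spink3-/-.

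The list of REG and acute-phase proteins, secreted in injury and inflammation, had members on both sides, 9 higher and 14 lower of 23 with a median of -0.13. Unadjusted p was under 0.05 for 3 on the higher side and 5 on the lower (all genes 2.44 and 4.91%). No overlap was met by 4 and 9 (all genes 13.1 and 21.6%), and none passed. Reg2, a small secreted lectin, was at log2 levels of 2.43 and 2.85 in Spink3-/-, 3.91 and 3.96 in Spink3-/-XKI/+ and 1.79 and 1.86 in Spink3+/+ (log2 difference -1.29, SE 0.20, limma adjusted p = 0.222). Reg3a was at -0.73 and -1.64 against 0.85 and 0.72, with Spink3+/+ at -2.99 and -1.80, and Reg3b at 5.00 and 5.07 against 5.88 and 6.57, with Spink3+/+ at 4.11 and 2.74. Reg1 was at 9.69 and 9.49 against 9.88 and 9.77, with Spink3+/+ at 8.85 and 8.82. In these 4 genes both Spink3-/- genotypes lay above Spink3+/+. Ceruloplasmin (Cp), a copper-carrying plasma protein, was at -0.11 and -0.30 against 1.26 and 1.27, and complement C3 at 4.66 and 4.81 against 5.85 and 5.38. The fibrinogen chains Fgb and Fgg, which are also on the liver list, differed the other way by 1.74 and 2.27. Without replicate 2 of Spink3-/-XKI/+ the median was -0.03.

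The list of trypsin inhibitors and secreted serpins had a median of 0.43 over 16 members, 11 higher and 5 lower, with 6 and 1 under an unadjusted p of 0.05. The median was 0.22 without replicate 1 of Spink3-/-XKI/+. The Serpina1 genes, shared in part with the liver list, made up its top. Serpini2, a pancreas serpin, was at log2 levels of 6.71 and 6.79 against 6.45 and 6.23. Slpi, a secreted inhibitor of leukocyte proteases, was the lowest member at 2.26 and 2.04 in Spink3-/- against 3.57 and 3.74 in Spink3-/-XKI/+ (log2 difference -1.51, SE 0.23, limma adjusted p = 0.222). Kallikreins and proteases outside the enzyme list had a median of -0.07 over 19, 6 higher and 13 lower, with Klk1b3 at -0.12, Klk1b4 at -0.18, Klk1b9 at 1.67 and Hgfac at -0.24. Replicate 1 of Spink3-/- was below replicate 2 in 18 of the 19, and without it 16 were higher and 3 lower with a median of 0.22. Without replicate 2 of Spink3-/- 3 were higher and 16 lower with a median of -0.40.

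**Figure D4:**
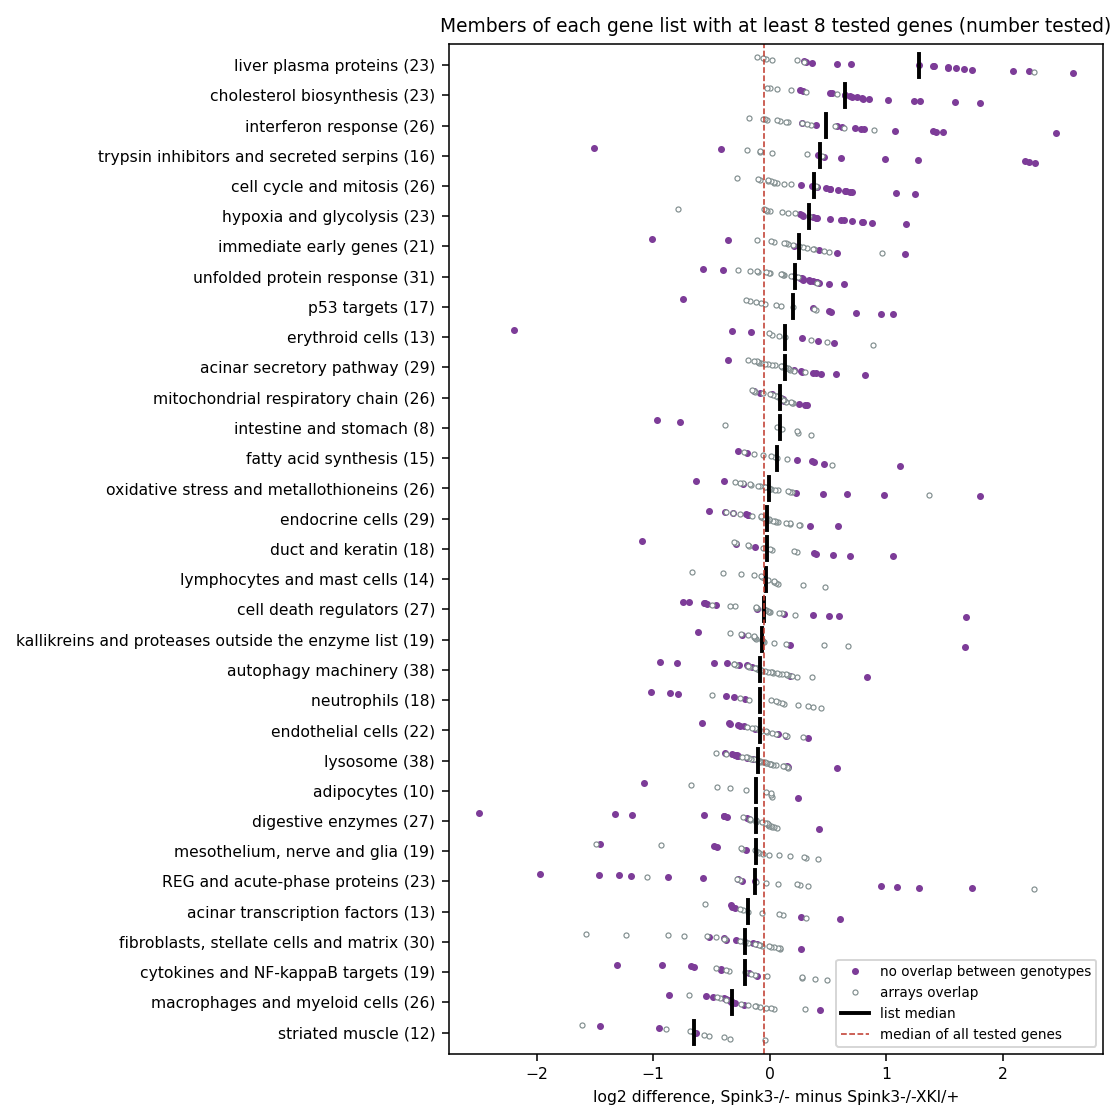
Log2 difference, Spink3-/- minus Spink3-/-XKI/+ (horizontal axis), of each tested member of the 33 lists with at least 8 tested genes (vertical axis, number tested in brackets). Filled points are genes whose arrays do not overlap between the genotypes, bars are list medians and the dashed line is the median of all genes at -0.045. Over all 4 arrays liver plasma proteins have the highest median at 1.28 and striated muscle the lowest at -0.65. The first of these does not hold without XKI replicate 1. The second does not hold without XKI replicate 2, where striated muscle is at -0.11 and macrophages and myeloid cells at -0.42.

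Autophagy and lysosome genes, the machinery named in the design, differed little between the genotypes. The autophagy list had a median log2 difference of -0.08 over 38 members, 14 higher and 24 lower. Under an unadjusted p of 0.05 were 1 and 1 (all genes 2.44 and 4.91%). Atg5 and Atg7, which build the membrane of the autophagosome, were at log2 levels of 1.02 and 0.67 against 0.94 and 0.47 and of 1.42 and 1.53 against 1.58 and 1.67. Epg5, which tethers autophagosomes to lysosomes, differed by 0.83, and Atg16l2 by -0.94. The lysosome list had a median of -0.10 over 38 members, 12 higher and 26 lower, with 0 and 0 under an unadjusted p of 0.05. Its membrane protein Lamp1 differed by -0.04, the protease Ctsb by -0.30, the proton pump subunit Atp6v1h by 0.58 and progranulin (Grn) by -0.39. The autophagy median was -0.010 without replicate 1 of Spink3-/-, and the lysosome median 0.0079 without replicate 1 of Spink3-/-XKI/+.

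Regulators of cell death had a median of -0.05 over 27 members, 9 higher and 18 lower. Under an unadjusted p of 0.05 were 1 and 5 (all genes 2.44 and 4.91%). With spike-in scaling 14 were higher and 13 lower, with 2 and 0 under that p, and without replicate 1 of Spink3-/-XKI/+ it was 0 and 1. Tnfrsf10b was at log2 levels of -0.17 and -0.44 in Spink3-/- and 0.32 and 0.56 in Spink3-/-XKI/+. The pore-forming Gsdmd differed by -0.56, and the BH3-only proteins Bad and Bmf by -0.54 and -0.69. The survival protein Bcl2l1 was at 4.30 and 4.42 against 3.48 and 4.04, and Bax differed by -0.11. Ripk1, a kinase of necroptosis, was at -0.95 and 1.61 against -1.37 and -1.34, so its log2 difference of 1.68 was 0.40 without replicate 2 of Spink3-/- and 2.96 without replicate 1, where it was among 5 genes called.

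Macrophage and myeloid transcripts were mostly lower in Spink3-/- than in Spink3-/-XKI/+. Of 26 members 4 were higher and 22 lower, with a median of -0.32, where 42.4% of all genes are higher. Under an unadjusted p of 0.05 were 0 and 2, near the 2.44 and 4.91% of all genes. No overlap was met by 1 and 12 (all genes 13.1 and 21.6%). Trem2, a receptor of lipid-handling macrophages, was at log2 levels of 1.71 and 1.88 in Spink3-/-, 3.07 and 2.25 in Spink3-/-XKI/+ and 1.16 and 0.61 in Spink3+/+. Its adaptor Tyrobp was at 2.75 and 2.46 against 3.35 and 2.95, and Cd68 at 1.97 and 1.90 against 2.73 and 2.12, while Adgre1 differed by -0.12. Replicate 1 of Spink3-/-XKI/+ was the higher of its pair in 20 members, and without it the median was -0.14. The mean of Spink3-/- was above that of Spink3+/+ in 23 of the 26.

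For cytokines and NF-kappaB targets the median was -0.22 across 19 members, 4 higher and 15 lower. Under an unadjusted p of 0.05 were 0 and 2 (all genes 2.44 and 4.91%). The median was -0.093 without replicate 2 of Spink3-/-, -0.096 without replicate 2 of Spink3-/-XKI/+ and -0.41 without replicate 1 of Spink3-/-XKI/+, and with no filter on dim probes it was 0.043 with 17 on each side. The chemokine Ccl6 was at log2 levels of 2.77 and 2.41 against 3.40 and 3.63. The inhibitor Tnfaip3 differed by -1.31 with 1 of 2 Spink3-/- arrays above background, Cxcl12 by -0.35 and Ccl2 by 0.28. Neutrophil genes had a median of -0.09 over 18, 9 on each side, with S100a8 at -0.31, S100a9 at -0.21, Stfa1 at -0.37 and the granulocyte factor Cebpe at log2 levels of -1.65 and -1.45 against -0.49 and -0.57. Lymphocyte and mast cell genes had a median of -0.03 over 14, 6 higher and 8 lower, with Cd3e at -0.05, Cd79a at -0.08, Mcpt4 at -0.67 and Cpa3 at 0.48. Spleen and thymus stroma had 4 members tested with a median of -0.075 (Nkx2-5 -0.12, Ccl19 -0.86, Madcam1 0.27 and Ctsk -0.03). Without replicate 1 of Spink3-/- the medians of neutrophil and of lymphocyte and mast cell genes were 0.12 and 0.16, and without replicate 1 of Spink3-/-XKI/+ that of spleen and thymus stroma was 0.028.

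Muscle transcripts were highest on 1 array, though all 4 arrays of the compared genotypes lay above Spink3+/+ in the list's mean level. That mean log2 level was -0.68 and -0.99 in Spink3-/-, -0.58 and 0.37 in Spink3-/-XKI/+, and -1.54 and -1.28 in Spink3+/+. All 12 tested genes of striated muscle were lower in Spink3-/-, and their median log2 difference was -0.65, with 2 under an unadjusted p of 0.05. In 11 of them replicate 2 of Spink3-/-XKI/+ was the highest of the 4 arrays, and without it the median was -0.11 with 4 higher and 8 lower. Cardiac troponin T (Tnnt2) was at log2 levels of 0.11 and -1.60 in Spink3-/- and -0.11 and 1.83 in Spink3-/-XKI/+, skeletal actin (Acta1) at 0.26 and -1.07 against -0.40 and 0.91, and Myh8 at -2.20 and -1.62 against -1.78 and -0.66. The muscle enolase Eno3 differed by -0.64, and titin (Ttn), below background on both Spink3-/- arrays, was at least 1.10-fold lower there. Of the list's 24 genes 12 were not tested, being above background on both arrays of neither genotype. The single direction depended on this filter: with no filter on dim probes 6 of the 24 were higher and 18 lower, with a median of -0.455. Over the 9 members above background on all 4 arrays, all 9 were lower, with a median of -0.562.

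Smooth muscle genes on the list of fibroblasts, stellate cells and matrix had the same array on top. Myh11 was at log2 levels of 2.48 and 1.05 in Spink3-/- and 2.09 and 4.59 in Spink3-/-XKI/+, Cnn1 at 3.94 and 2.07 against 3.26 and 5.21, Acta2 at 5.65 and 4.47 against 5.10 and 6.77 and Tagln at 6.00 and 5.11 against 5.45 and 7.12. The groups overlap in all 4. The collagens Col1a1 and Col1a2 differed by 0.04 and -0.14 and the fibroblast receptor Pdgfra by -0.53. Over the 30 members 6 were higher and 24 lower, with a median of -0.21 that was -0.11 without replicate 2 of Spink3-/-XKI/+. The part that muscle tissue has in these values was not tested.

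Endocrine, duct and endothelial genes gave medians near the -0.045 of all genes, and erythroid genes a higher one. Endocrine cells had -0.02 over 29 members, 11 higher and 18 lower, with insulin (Ins1) at log2 levels of 10.08 and 10.26 against 10.41 and 10.31, Gcg differing by -0.07, Chga by -0.53 and the prohormone convertase Pcsk1 by 0.59. Duct and keratin genes had -0.03 over 18, 9 on each side, with Krt19 at 0.23, Sox9 at -0.18, Krt8 at 0.69 and Krt20 at 4.70 and 4.41 against 5.97 and 5.34. Endothelial cells had -0.09 over 22, 8 higher and 14 lower, with Pecam1 at 0.15, Cdh5 at 0.29, Plvap at -0.34 and the lymphatic Lyve1 at -0.58. Erythroid cells had 0.13 over 13, 9 higher and 4 lower, with Hba-a1 at 0.55, Alas2 at 0.41, Tal1 at -0.33 and the embryonic globin Hbb-bh1 above background on the Spink3-/-XKI/+ arrays alone, at -2.71 and 1.44. These medians depended on single arrays: that of endocrine cells was 0.057 without replicate 1 of Spink3-/-XKI/+, and that of duct and keratin genes 0.13 without replicate 1 of Spink3-/-. That of erythroid cells was -0.094 without replicate 2 of Spink3-/-XKI/+ and 0.28 without replicate 1 of that genotype. With no filter on dim probes the erythroid median was 0.38, with 16 of 21 members higher.

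Fat cell genes had 10 of 20 members tested with a median of -0.12, 4 higher and 6 lower. Lipoprotein lipase (Lpl) was at log2 levels of 1.51 and 1.19 against 2.52 and 2.33 (log2 difference -1.08, SE 0.19, limma adjusted p = 0.298), while Fabp4 differed by 0.24, Slc2a4 by -0.68 and Cd36 by -0.34. The fat cell markers Adipoq and Plin1 were below the limit for testing in both genotypes. Mesothelium, nerve and glia had a median of -0.12 over 19, 5 higher and 14 lower, with Wt1 at -0.06, Msln at -0.48 and Uchl1 at -0.45. The receptor Ret, below background on both Spink3-/- arrays, was at least 1.49-fold lower there. Intestine and stomach had 8 members tested with a median of 0.09, with Vil1 at 0.24, Lgals4 at -0.97, Gkn1 at -0.77 and Muc5ac at 0.23. Without replicate 1 of Spink3-/- the median of fat cell genes was 0.10, and without replicate 1 of Spink3-/-XKI/+ that of intestine and stomach was -0.185. Subunits of the mitochondrial respiratory chain had a median of 0.09 over 26, 20 higher and 6 lower, with Ndufa1 at 0.20, Ndufa4 at 0.06, Sdhb at 0.30 and Cycs at 0.32. Of the sex-linked genes Xist was tested and differed by 0.11. The 4 Y-linked genes were not tested, being above background on both arrays of neither genotype, which does not tell whether single arrays measured them. Across the 35 lists no member passed over all genes.

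**Figure D5:**
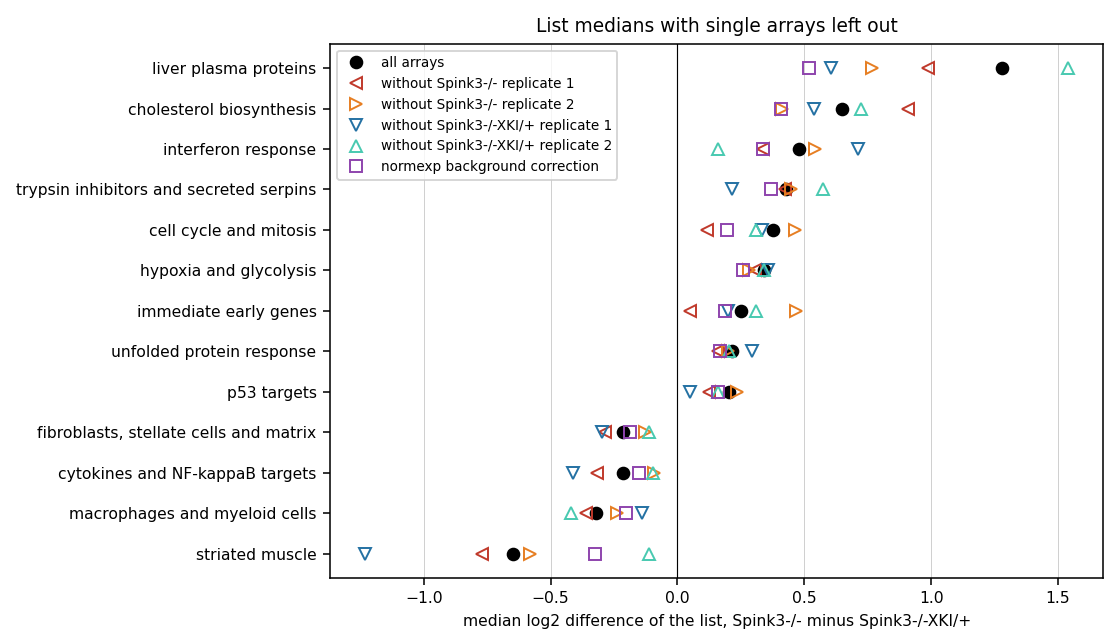
Median log2 difference, Spink3-/- minus Spink3-/-XKI/+ (horizontal axis), of the 13 lists with an absolute median of at least 0.2 (vertical axis), over all arrays (black) and with 1 array left out or normexp background correction (open symbols). Liver plasma proteins move between 0.52 and 1.54 and striated muscle between -1.23 and -0.11, while hypoxia and glycolysis stays between 0.26 and 0.36.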

How the data were processed

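Each of the 6 arrays held RNA of 1 pancreas sample labelled with Cy3. The deposited scanner files, per the file headers, were made with Agilent Feature Extraction 10.7.3.1, which subtracted background and detrended each array, and they hold linear spot intensities that the authors did not scale between arrays. The deposited series values equal those intensities.

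The log2 of each processed signal was taken and the array's 75th percentile subtracted. Control spots and outlier-marked spots were dropped, spots of a probe were averaged, and a probe was tested if well above background on both arrays of either genotype. Probes were named by accession (26762), symbol (3819) or older symbol (639) through RefSeq, and 2044 kept the file's name. A gene was given by its brightest tested probe, and 6445 tested probes without a name were left out. limma 3.58.1 in R 4.3.3 fitted all 6 arrays, and the spread was pooled over the 3 genotypes (3 residual degrees of freedom). Tests were two-sided and called at a Benjamini-Hochberg adjusted p under 0.05. The fit was tested on simulated data. Figures were drawn with matplotlib 3.10.9.

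Named genes are, in each direction, up to 12 with a plain symbol, an absolute log2 difference of at least 1, no overlap, the brighter genotype above background on both arrays, called genes first and then the smallest p. Further named genes are Spink3 and, per list, the first 2 tested members and 2 with the smallest p. Other genes were named after their values were seen, among them the remaining carboxylesterases, Igfbp1, Pglyrp1, S100g, Slpi, Ripk1 and Gp2. The comparison and the gene lists were chosen with earlier results of these data known. Alternatives were normexp background correction, quantile and spike-in scaling, other filters, the mean of probes, other fits, the replicate number or slide row as a block, the series values and each array left out. List medians without each array were added after seeing the data. All arrays share 1 slide and 1 scan date. Its rows hold Spink3+/+ and replicate 1 of Spink3-/- in the first and the other 3 arrays in the second. Some genes of the lists are not reported by name here.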

Additional observations from a re-analysis of the deposited data

How the results depend on the processing

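The count of genes higher in Spink3-/- was 1 with the mean of probes and with the series values, 2 with quantile normalization, 2 with spike-in scaling and 5 with slide row as a block. It was 0 with normexp background correction, with no filter on dim probes, with the filter on all 4 arrays, with 4 arrays in the fit, with the trend and robust fit and with the replicate block, and ranged from 0 to 5 when 1 array was left out. With 1 array of a genotype left out, the lone array left is taken to have the spread of the other genotypes. The count lower was 2 with quantile normalization and 0 in every other setting. Ces2a was removed by the filter on all 4 arrays, and in the other settings its limma adjusted p ranged from 0.00463 (quantile) to 0.566 (no filter). Replicate 1 of Spink3-/- is the only Spink3-/- array in its slide row, so the row block gave the values obtained without that array, with Dusp5, Secisbp2l, Ripk1, Ston1 and 4833445I07Rik called. Deviations of same-numbered arrays correlated at 0.174 between the compared genotypes, and at -0.047 and -0.002 between Spink3+/+ and each of them. The replicate numbers were not taken as pairs, since not every correlation was over 0.1. With the replicate block, 0 genes were called and Ces2a had a limma adjusted p of 0.283.

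Directions of the differences listed here, not all of them small, depended on single arrays. With 1 array left out, log2 differences ran from -0.20 to 0.33 for Cpa1, -1.13 to 0.026 for Ptf1a, -0.23 to 0.011 for Sec61a1, -0.10 to 0.37 for Atg5, -0.15 to 0.068 for Lamp1, -0.35 to 0.12 for Bax, -0.52 to 0.61 for Srebf1, -0.28 to 0.67 for Egr1, -0.33 to 0.41 for Fosb and -0.92 to 0.23 for Cxcl12. They ran from -0.72 to 1.28 for Ccl2, -0.26 to 0.89 for Irf7, -0.49 to 0.13 for Irf1, -0.094 to 0.28 for Mdm2, -0.032 to 0.34 for Vegfa, -0.034 to 0.50 for Krt19, -0.57 to 0.22 for Sox9, -0.27 to 0.13 for Gcg, -0.59 to 0.34 for Adgre1 and -0.48 to 0.39 for Cd3e. The range was -0.37 to 0.22 for Cd79a, -0.035 to 0.99 for Cpa3, -0.071 to 0.65 for Cdh5, -0.36 to 0.25 for Wt1, -1.42 to 0.068 for Slc2a4, -0.73 to 0.052 for Cd36, -1.32 to 0.0076 for Acta1, -0.15 to 0.62 for Muc5ac, -0.33 to 0.094 for Nkx2-5 and -0.34 to 0.28 for Ctsk. It was -0.12 to 0.34 for Xist, -0.46 to 0.21 for Klk1b3, -0.54 to 0.17 for Klk1b4, -0.0011 to 0.40 for Ndufa1, -0.055 to 0.17 for Ndufa4, -0.53 to 0.33 for Ces1d, -1.44 to 0.28 for Ces2e, -0.091 to 0.56 for Fga and -1.57 to 0.10 for Tagln. With slide row as a block the sign turned for Sec61a1 (0.011), Atg5 (-0.039), Lamp1 (0.020), Egr1 (-0.28), Fosb (-0.33), Ccl2 (-0.72), Mdm2 (-0.094), Cd3e (0.39), Cd79a (0.22), Cdh5 (-0.071), Nkx2-5 (0.055), Xist (-0.12), Klk1b3 (0.21), Klk1b4 (0.17), Ndufa4 (-0.055) and Ces2e (0.021). With spike-in scaling it turned for Lamp1 (0.027), Cd3e (0.021), Wt1 (0.013) and Ctsk (0.038), and with quantile normalization for Ctsk (0.00018). The cause was not tested. Low signal over background limits the largest differences, since 21 of 139 such genes on the higher side and 93 of 183 on the lower were below background on both arrays of the dimmer genotype.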
